A study of Homo sapiens with 8 samples.

Results

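The genes described here are the cell surface death receptors and the receptor-proximal caspase-8 machinery of a glioblastoma cell line, together with TNFRSF12A. They are 10 of the 26364 genes in the count file, namely FAS, TNFRSF10A, TNFRSF10B, TNFRSF10C, TNFRSF10D, TNFRSF1A, TNFRSF12A, FADD, CASP8 and CFLAR, taken by their symbols. They were chosen from the measured expression values of these same libraries, because some of them differed between groups, so their own values are given as a description and without p-values. LN229 is a human glioblastoma line, and RNA-seq was done on clones of it that carry a survivin-GFP fusion from the pcDNA3.1 plasmid under permanent G418 selection. Survivin (BIRC5) is an inhibitor of apoptosis protein that also serves in cell division. Surv-GFP cells carry the fusion with a functional nuclear export sequence (NES) and are labelled as holding it mostly in the cytoplasm, while SurvNESmut-GFP cells carry the fusion with a mutated NES and are labelled as holding it mostly in the nucleus. The labels are the same for untreated and treated cells of a clone, although the study describes a shift of the Surv-GFP fusion to the nucleus under TMZ, so the location named for a clone need not hold in its treated group. Each clone was sequenced untreated and after 50 µM temozolomide (TMZ), a methylating drug used against glioblastoma, for 48 h. This gives 4 groups of 2 libraries, with the replicate letters a and b. Each kind of fusion is represented by a single clone, so the NES mutation, the clone and the amount of fusion transcript cannot be told apart. The study describes its RNA-seq as biological replicates run in technical duplicate, and does not say which of these the letters mark, so every error below measures the spread between letters, which may be technical.

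Death receptors are members of the TNF receptor superfamily with a death domain inside the cell. FAS binds FAS ligand, TNFRSF10A and TNFRSF10B (DR4 and DR5) bind TRAIL, and TNFRSF1A (TNFR1) binds TNF. When FAS or a TRAIL receptor is bound, the adaptor FADD joins it and recruits procaspase-8, which is activated by being brought together. CFLAR (c-FLIP) resembles caspase-8 but lacks its protease activity, and competes for the same complex. TNFRSF10C and TNFRSF10D bind TRAIL without a working death domain. TNFRSF12A (Fn14) has no death domain and signals to NF-kB through TRAF proteins when TWEAK binds it. FAS and TNFRSF10B are textbook targets of p53, and LN229 was described by the study as p53-proficient.

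Of the 10 genes, 5 had an entry in the RefSeq promoter table (FAS, CASP8, CFLAR, FADD and TNFRSF1A). TNFRSF12A, TNFRSF10A, TNFRSF10B, TNFRSF10C and TNFRSF10D had none. The 250 bases before the first listed start of a receptor that was higher after TMZ in both clones (FAS), of the caspase (CASP8) and of a receptor that was not (TNFRSF1A) are shown from RefSeq on GRCh38.p14, at chr10:88990548-88990797 on the plus strand, chr2:201233213-201233462 on the plus strand and chr12:6342077-6342326 on the minus strand. Capitals mark matches on either strand to the AP-1 motif TGANTCA or the GC box GGGCGG, and TNFRSF1A holds neither.
FAS: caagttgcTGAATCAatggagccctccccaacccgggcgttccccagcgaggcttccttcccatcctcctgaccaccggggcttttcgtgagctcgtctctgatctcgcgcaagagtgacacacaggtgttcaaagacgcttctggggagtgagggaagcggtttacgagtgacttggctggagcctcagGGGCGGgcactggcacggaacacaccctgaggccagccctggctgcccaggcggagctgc
CASP8: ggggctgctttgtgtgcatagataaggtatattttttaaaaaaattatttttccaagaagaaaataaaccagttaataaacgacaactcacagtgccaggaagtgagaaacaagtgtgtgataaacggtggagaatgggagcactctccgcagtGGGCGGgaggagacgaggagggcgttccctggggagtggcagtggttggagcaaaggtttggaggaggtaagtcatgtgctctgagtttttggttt
TNFRSF1A: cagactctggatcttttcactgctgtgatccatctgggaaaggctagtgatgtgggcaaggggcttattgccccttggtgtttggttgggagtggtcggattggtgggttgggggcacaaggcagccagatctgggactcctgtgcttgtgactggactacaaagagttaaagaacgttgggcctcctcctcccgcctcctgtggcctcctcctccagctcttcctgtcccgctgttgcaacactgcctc

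Among 35116 promoters of this length in the table, 6.57% held the AP-1 motif and 42.6% the GC box. The first listed FAS promoter held 1 match to each, and that of CASP8 held 1 GC box. FAS entries 2 and 3 held no AP-1 match, while entry 3 of CASP8 and entry 3 of CFLAR held 1 each. TNFRSF1A held 1 match to CCAAT, a motif found in 32.0% of promoters. The full p53 site without a spacer, searched as a fixed pattern of letters, was found in 0.0171% of promoters. None of the 12 promoter entries of these genes held it. A pattern this rare would seldom be met in 12 entries, so its absence says little, and TNFRSF10B had no entry. All the motif counts are matches of letters in a short window, and binding of a factor was not measured.

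Between 15826923 and 18861603 counts per library lay on genes, and 14201 genes had enough counts to be tested. The transcript of the survivin gene, which includes the fusion as far as its reads were counted there, averaged 1130 ± 27.9 CPM (counts scaled to a common library size, SD, n = 2 here and below) in untreated Surv-GFP and 411 ± 5.22 CPM in untreated SurvNESmut-GFP cells, and 1980 ± 64.6 and 258 ± 6.89 CPM after TMZ. The p53 target CDKN1A (p21) went from a mean of 81.9 to 941 CPM with TMZ in Surv-GFP and from 118 to 460 CPM in SurvNESmut-GFP cells. The glioma markers VIM, CD44 and NES were high in every library, while GFAP had 0 to 17 counts. OLIG2, SOX2 and PTPRZ1 were lower in both SurvNESmut-GFP groups than in both Surv-GFP groups. Of 11 markers of other cell types only MBP passed 7 counts in any library, with 102 to 131 counts in SurvNESmut-GFP and 0 in Surv-GFP libraries.

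Of the 10 genes, 8 had enough counts to be tested. TNFRSF10C and TNFRSF10D did not, and TNFRSF10A passed only through the Surv-GFP libraries, where it was higher. In Surv-GFP cells 6 of the 8 were called higher and 0 lower with TMZ at an adjusted p of 0.05 (edgeR), where 30.1% of all tested genes were called higher and 28.9% lower. In SurvNESmut-GFP cells 4 were called higher and 1 lower, against 18.6% and 19.1% of all tested genes. For 4 of them the TMZ effect was called lower in SurvNESmut-GFP cells than in the other clone and for 0 higher, against 20.2% and 16.6% of all tested genes. Since the genes were picked with such values in view, nothing is read from these counts. With TMZ the median of the 8 on the log2 scale was 0.998 in Surv-GFP cells and 0.33 in SurvNESmut-GFP cells, while that of all tested genes was 0.00 in both. Without TNFRSF10A, an alternative chosen after seeing the data, the medians of the other 7 were 0.50 and 0.30. The median of so few genes thus depended on whether TNFRSF10A was counted, and without it fell on FADD in Surv-GFP cells. The fitted effect of TNFRSF10A itself was larger in SurvNESmut-GFP (2.45 ± 1.3, SE, from few counts) than in Surv-GFP cells (1.83). The 4 genes whose TMZ effect was called lower in SurvNESmut-GFP cells are all among the other 7. In bulk RNA, fewer cells expressing a gene and less of its RNA per cell cannot be told apart.

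**Figure D1:**
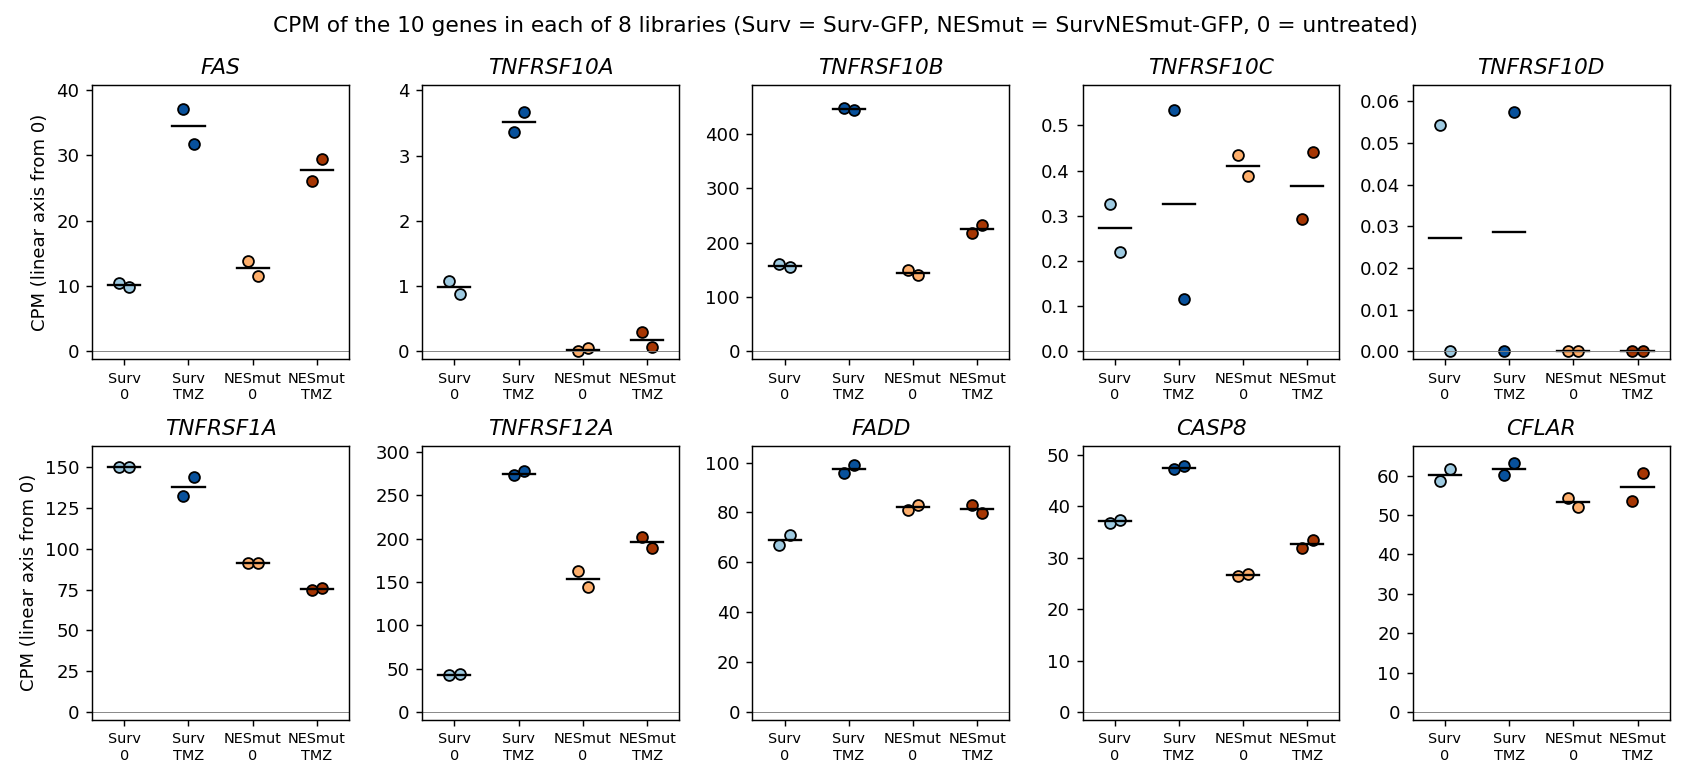
CPM (linear axis, own scale for each gene) of the 10 genes in each of the 8 libraries; points are libraries and bars the mean of 2. FAS, TNFRSF10B and TNFRSF12A were higher after TMZ in both clones, TNFRSF12A was already higher in untreated SurvNESmut-GFP cells, and the TNFRSF10C and TNFRSF10D panels show 10 counts or fewer per library.

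FAS, the receptor for FAS ligand, stood at 10.5 and 9.82 CPM in the untreated Surv-GFP libraries and at 37.1 and 31.8 CPM after TMZ. In SurvNESmut-GFP cells it stood at 13.9 and 11.6 CPM untreated and at 26.1 and 29.4 CPM after TMZ. All treated libraries thus lay above all untreated ones, and the highest values were those of treated Surv-GFP cells. With TMZ the log2 fold change was 1.76 ± 0.11 (SE) in Surv-GFP cells and 1.12 ± 0.11 in SurvNESmut-GFP cells, which is 3.39-fold and 2.17-fold. The difference between these effects was -0.64 ± 0.16 on the log2 scale. Between untreated clones FAS was 0.33 ± 0.13 higher in SurvNESmut-GFP cells, and this call was lost in 7 of 17 alternative settings, among them those leaving out untreated Surv-GFP replicate a, untreated Surv-GFP replicate b or untreated SurvNESmut-GFP replicate a. Over all settings it ranged from 0.19 to 0.45. After TMZ it was -0.32 ± 0.10 in SurvNESmut-GFP relative to Surv-GFP cells, a call lost without treated Surv-GFP replicate a.

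TNFRSF10B, the TRAIL receptor DR5, was by far the most abundant TRAIL receptor transcript and took 99.09 to 99.78% of the counts on the 4 TRAIL receptor genes in each library. It stood at 160 and 156 CPM in untreated and at 447 and 444 CPM in treated Surv-GFP libraries. The SurvNESmut-GFP libraries had 149 and 140 CPM untreated and 218 and 232 CPM treated. The treated and untreated libraries did not overlap in either clone, and treated Surv-GFP cells held about the same level in both letters, far above the other 3 groups. The rise with TMZ was 2.82-fold in Surv-GFP cells, a log2 fold change of 1.50 ± 0.05, and 1.56-fold in SurvNESmut-GFP cells, a log2 fold change of 0.64 ± 0.05. The difference between the effects was -0.86 ± 0.07. Without TMZ the clones differed by only -0.13 ± 0.05 (SurvNESmut-GFP relative to Surv-GFP), a call lost when the replicate letter was a block and when untreated Surv-GFP replicate a or b or untreated SurvNESmut-GFP replicate b was left out, whereas with TMZ they differed by -0.99 ± 0.05.

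TNFRSF10A, the other TRAIL receptor with a death domain (DR4), was a rare transcript and is given in raw counts. In Surv-GFP cells 20 and 16 reads were counted untreated and 63 and 64 after TMZ. In SurvNESmut-GFP cells 0 and 1 reads were counted untreated and 5 and 1 after TMZ. Every Surv-GFP library thus had more counts than every SurvNESmut-GFP library. The depth-adjusted count ratio for TMZ was 3.57 (95% interval 2.45 to 5.33, counting error only) in Surv-GFP cells. For SurvNESmut-GFP the ratio was 6.63, with an interval from 0.804 to 305, so no difference was detectable there at this depth, although the fit without treated SurvNESmut-GFP replicate b called one. Relative to Surv-GFP cells the ratio of SurvNESmut-GFP cells was 0.0279 (0.000687 to 0.166) without TMZ and 0.0518 (0.0186 to 0.116) with TMZ.

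The decoy receptors were near the limit of detection. TNFRSF10C (DcR1) had 6 and 4 counts in untreated and 10 and 2 in treated Surv-GFP libraries, and 8 and 7 in untreated and 5 and 7 in treated SurvNESmut-GFP libraries, so treated and untreated libraries overlapped in both clones. The TMZ ratio was 1.21 (0.481 to 3.14) in Surv-GFP and 0.884 (0.378 to 2.02) in SurvNESmut-GFP cells, which does not show that the levels were alike. TNFRSF10D (DcR2) had 1 and 0 counts untreated and 0 and 1 after TMZ in Surv-GFP cells and 0 in all 4 SurvNESmut-GFP libraries. A count of 0 allows up to 3 counts, or 0.163 to 0.189 CPM in those 4 libraries.

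TNFRSF1A, the main receptor for soluble TNF, moved little with TMZ and in the other direction. It stood at 150 CPM in both untreated Surv-GFP libraries and at 132 and 144 CPM in the treated ones. The SurvNESmut-GFP libraries had 91.0 and 91.4 CPM untreated and 74.8 and 75.7 CPM after TMZ. All SurvNESmut-GFP values lay below all Surv-GFP values, and treated libraries lay below untreated ones within each clone. The log2 fold change with TMZ was -0.28 ± 0.05 in SurvNESmut-GFP cells. In Surv-GFP cells it was -0.12 ± 0.05, which was not called at the threshold but was in 8 of 17 alternative settings, among them 2 other scalings, both other filters on low counts and the fits without treated Surv-GFP replicate b or either treated SurvNESmut-GFP library, with values from -0.21 to -0.05. The effects differed by -0.16 ± 0.07, called only without treated Surv-GFP replicate a among the settings tried. The clone difference was -0.71 ± 0.05 without and -0.87 ± 0.05 with TMZ.

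TNFRSF12A, the TWEAK receptor, showed the largest TMZ effect of these genes in Surv-GFP cells. It stood at 42.5 and 44.3 CPM untreated and at 273 and 278 CPM after TMZ, a 6.34-fold rise (log2 fold change 2.67 ± 0.07). In SurvNESmut-GFP cells it stood at 163 and 144 CPM untreated and at 202 and 189 CPM after TMZ, a 1.27-fold rise (0.35 ± 0.06). The 4 groups did not overlap, and their order from the lowest was untreated Surv-GFP, untreated SurvNESmut-GFP, treated SurvNESmut-GFP and treated Surv-GFP. The difference between the TMZ effects was -2.31 ± 0.09. It went with a clone difference that changed direction, since SurvNESmut-GFP cells were 3.54-fold higher without TMZ (1.82 ± 0.07) and lower with it (-0.49 ± 0.06). Over 16 alternative settings the difference between the effects ranged from -2.41 to -2.22.

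**Figure D2:**
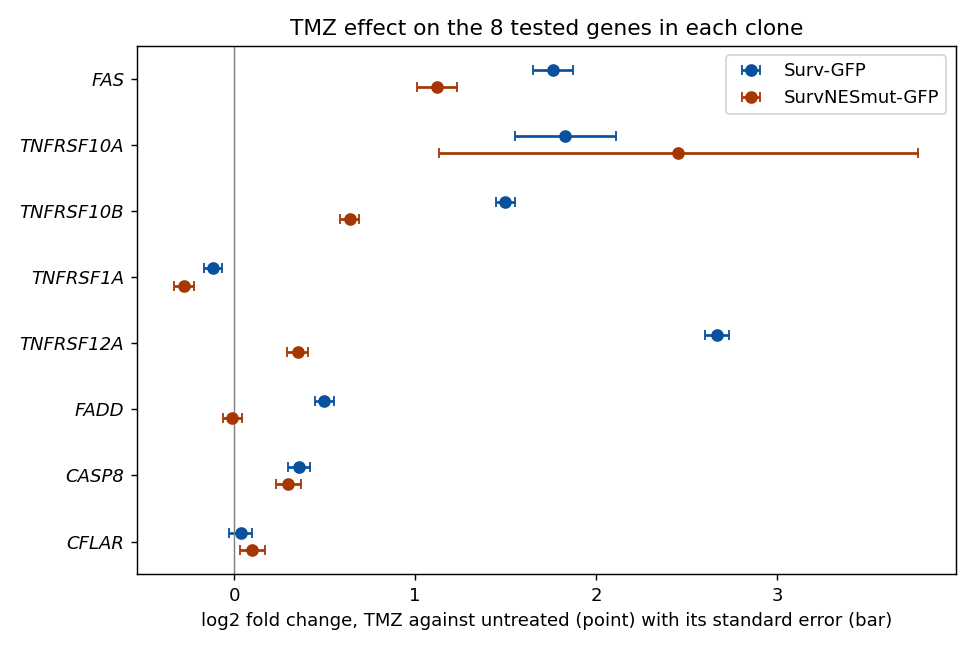
Log2 fold change with TMZ against untreated cells (x axis) of the 8 tested genes in Surv-GFP (blue) and SurvNESmut-GFP (brown) cells; bars are standard errors of the fit. TNFRSF12A lay furthest apart between the clones, at 2.67 and 0.35, and the wide bar is TNFRSF10A in SurvNESmut-GFP cells, where 7 reads in all were counted.

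FADD, the adaptor between receptor and caspase, stood at 67.0 and 71.1 CPM in untreated and at 95.9 and 99.1 CPM in treated Surv-GFP libraries. SurvNESmut-GFP libraries held 80.8 and 83.1 CPM untreated and 82.9 and 79.9 CPM treated. The treated libraries lay apart from the untreated ones in Surv-GFP cells and overlapped with them in SurvNESmut-GFP cells. The log2 fold change was 0.50 ± 0.05 in the former and -0.01 ± 0.05 in the latter, and the effects differed by -0.51 ± 0.08. SurvNESmut-GFP cells were 0.25 ± 0.05 higher than Surv-GFP cells without TMZ and differed by -0.26 ± 0.05 with it. In GENCODE 29, 976 of the 1841 FADD exon bases overlap another gene that has no row of that name in the count file, and no source used here states the strand setting of the counting.

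CASP8, the initiator caspase, stood at 36.7 and 37.4 CPM in untreated and at 47.2 and 47.8 CPM in treated Surv-GFP libraries. SurvNESmut-GFP libraries held 26.4 and 26.8 CPM untreated and 32.0 and 33.5 CPM treated. All SurvNESmut-GFP libraries lay below all Surv-GFP libraries, and treated above untreated ones in each clone. The TMZ effects were 0.36 ± 0.06 and 0.30 ± 0.07 on the log2 scale and their difference was -0.06 ± 0.09, which was not called. The clone difference was -0.48 ± 0.07 without and -0.54 ± 0.06 with TMZ.

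CFLAR, the caspase-8-like inhibitor, varied least. It stood at 58.7 and 61.7 CPM in untreated and at 60.2 and 63.2 CPM in treated Surv-GFP libraries, and at 54.3 and 52.1 CPM in untreated and at 53.6 and 60.7 CPM in treated SurvNESmut-GFP libraries. Treated and untreated libraries overlapped in both clones. The TMZ effects were 0.04 ± 0.06 and 0.10 ± 0.07 on the log2 scale, neither of them called, and the second was called without treated SurvNESmut-GFP replicate a. The clone difference was -0.18 ± 0.07 without TMZ, a call lost without untreated Surv-GFP replicate b or either untreated SurvNESmut-GFP library, and -0.11 ± 0.07 with TMZ, not called unless treated SurvNESmut-GFP replicate b was left out. As CASP8 moved and CFLAR did so less, the ratio of CASP8 to CFLAR counts was 0.616 ± 0.013 in untreated and 0.77 ± 0.021 in treated Surv-GFP cells, and 0.5 ± 0.021 and 0.574 ± 0.033 in SurvNESmut-GFP cells. The ratio is of reads, not of molecules, since coding CFLAR transcripts in GENCODE 29 run from 693 to 14672 bases.

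Across clones, 3 of the 8 tested genes were called higher and 5 lower in untreated SurvNESmut-GFP cells than in untreated Surv-GFP cells, against 34.7% and 29.4% of all tested genes. With TMZ 0 were called higher and 7 lower, against 34.5% and 34.7%. The median log2 difference of the 8 was -0.15 without and -0.51 with TMZ, and that of all tested genes 0.03 and -0.00. TNFRSF10A was tested only through its Surv-GFP counts, so the filter favoured its lower call in both comparisons. Of the other 7, 3 were called higher and 4 lower without TMZ, and 0 and 6 with it. Their medians were -0.13 and -0.49. Nothing is read from these counts either. The count without TMZ fell from 8 to 5 when untreated Surv-GFP replicate b was left out.

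To compare genes with each other, CPM was divided by the length of the longest coding transcript in GENCODE 29. Per kilobase, untreated Surv-GFP cells held 67.5 for TNFRSF1A, 38.3 for TNFRSF12A, 38.1 for TNFRSF10B, 37.5 for FADD, 12.7 for CASP8 and 3.98 for FAS. On this length TNFRSF12A, TNFRSF10B and FADD did not differ beyond the spread of their libraries, but with the shortest coding transcript they stood apart, at 67.0, 91.7 and 37.5. After TMZ the order in these cells was TNFRSF12A at 243, TNFRSF10B at 107, TNFRSF1A at 62.1, FADD at 52.1 and 53.8 in its libraries, CASP8 at 16.2 and FAS at 13.5. Untreated SurvNESmut-GFP cells already had TNFRSF12A first, at 135, followed by FADD at 44.5 and TNFRSF1A at 41.0, and after TMZ TNFRSF12A stood at 173 and TNFRSF10B at 54.3. With the shortest coding transcript TNFRSF12A was again first in untreated SurvNESmut-GFP cells, at 236, but TNFRSF10B came next at 83.6, then TNFRSF1A at 68.1 and FADD at 44.5, so the order of the genes behind TNFRSF12A depends on the transcript taken. FAS stayed among the lowest levels although its fold change was among the largest. CFLAR is not ranked at all, because its level in untreated Surv-GFP cells was 4.10 with the longest and 86.9 with the shortest coding transcript.

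**Figure D3:**
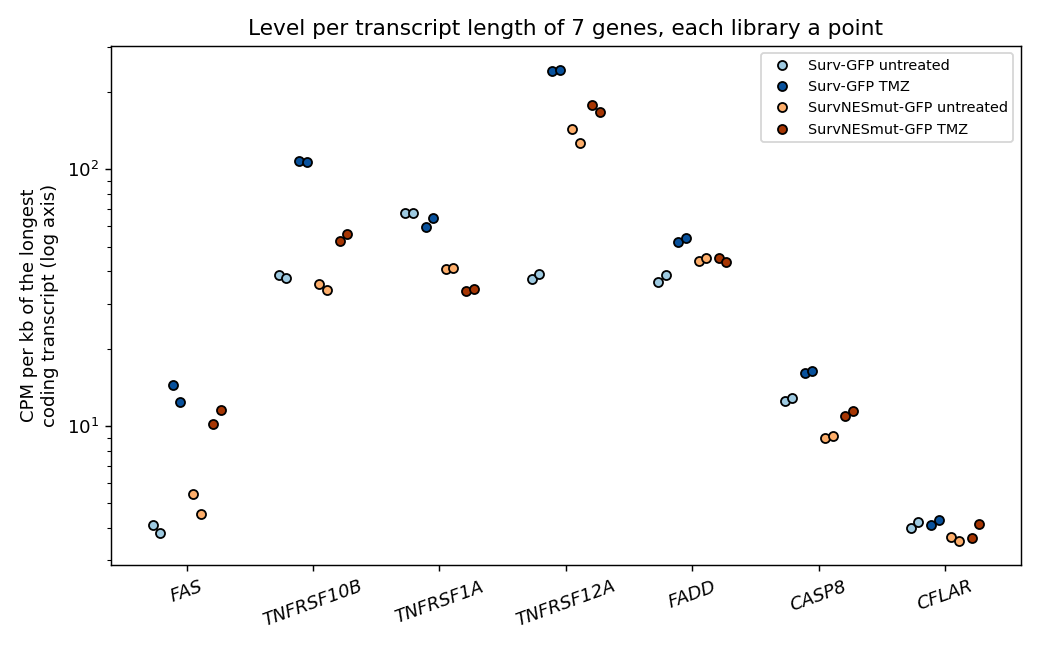
CPM per kilobase of the longest coding transcript (log axis) for 7 genes, each library a point, coloured by group. TNFRSF12A spans the widest range, from a mean of 38.3 in untreated to 243 in treated Surv-GFP cells, and the positions of the genes relative to each other, that of CFLAR most, depend on the transcript taken.

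The ligands of these receptors were scarce. FASLG, the ligand of FAS, had 0 counts in all 8 libraries and TNF 0 to 2. TNFSF10, which encodes TRAIL, had 17 and 28 counts in untreated and 4 and 6 in treated Surv-GFP libraries, and 7 and 3 and then 1 and 4 in SurvNESmut-GFP libraries. It was called lower with TMZ in Surv-GFP cells (log2 fold change -2.12, adjusted p = 0.0015, edgeR). TNFSF12, the gene of the TNFRSF12A ligand TWEAK, averaged 3.72 and 2.39 CPM in untreated and treated Surv-GFP and 8.27 and 7.85 CPM in SurvNESmut-GFP cells. It was thus higher in SurvNESmut-GFP cells, by 1.15 without TMZ (adjusted p = 2.8e-05) and 1.70 with it (adjusted p = 1.1e-06). TNFSF13B (BAFF) was also higher there with TMZ, by 1.91 (adjusted p = 0.0012), at 20 counts or fewer per library. CD70, ligand of CD27, and TNFSF9, ligand of 4-1BB, rose in both clones, CD70 9.52-fold and 4.14-fold and TNFSF9 9.18-fold and 4.50-fold. Both rises were smaller in SurvNESmut-GFP cells (adjusted p = 2.3e-06 and 7.1e-05 for the differences).

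Besides the 10 genes, 80 genes of the pathway were taken in 4 lists by role, and 62 had enough counts to be tested. In Surv-GFP cells 26 were called higher and 13 lower with TMZ, and in SurvNESmut-GFP cells 15 and 7. The TMZ effect was called lower in SurvNESmut-GFP cells for 22 and higher for 9. These counts stand beside the shares of all tested genes given above. Their median log2 fold change with TMZ was 0.13 in Surv-GFP cells and 0.06 in the other clone. Between the clones 27 (43.5%) were higher and 13 (21%) lower in SurvNESmut-GFP cells without TMZ, against 34.7% and 29.4% of all tested genes. With TMZ 24 (38.7%) were higher and 21 (33.9%) lower, against 34.5% and 34.7%. By role, 2 of 7 tested ligands, 7 of 13 other TNF receptors, 12 of 25 adaptors and 5 of 17 caspase-8 partners were higher with TMZ in Surv-GFP cells. In the same order, 2, 2, 3 and 6 were lower there. In SurvNESmut-GFP cells 2, 6, 5 and 2 were higher and 0, 2, 3 and 2 lower. Of all tested genes, 30.1% were higher and 28.9% lower in Surv-GFP cells, and 18.6% and 19.1% in SurvNESmut-GFP cells. These lists were written from general knowledge with earlier results known.

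Among the other receptors, EDA2R, a receptor for ectodysplasin A2, rose by 2.46 in Surv-GFP and 1.66 in SurvNESmut-GFP cells, and its difference between the clones' effects was -0.79 (adjusted p = 0.004, edgeR here and in the next paragraph). TNFRSF9 (4-1BB) rose from 5 and 2 to 50 and 53 counts in Surv-GFP and from 17 and 10 to 42 and 25 counts in SurvNESmut-GFP cells. TNFRSF11A (RANK) fell by 0.53 in Surv-GFP and rose by 0.93 in SurvNESmut-GFP cells (difference 1.45, adjusted p = 8.4e-05). RELT went the opposite way, by 0.49 and -0.24 (difference -0.73, adjusted p = 2e-05). TNFRSF21 (DR6), another receptor with a death domain, fell by 0.58 in Surv-GFP cells and had 0.08, not called, in SurvNESmut-GFP cells (difference 0.66, adjusted p = 0.0001). NGFR, the p75 neurotrophin receptor, was higher in SurvNESmut-GFP cells by 2.70 without and 3.18 with TMZ, and TNFRSF19 was lower, at -1.60 and -2.12. CD40 had 0 or 1 counts in the Surv-GFP libraries and 94 and 92 untreated and 72 and 60 treated in SurvNESmut-GFP cells.

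Among adaptors, BIRC3 and BIRC2, the ubiquitin ligases cIAP2 and cIAP1, rose by 3.13 and 1.13 in Surv-GFP and by 1.73 and 0.25 in SurvNESmut-GFP cells (differences -1.39 and -0.87, adjusted p = 0.00028 and 1.3e-06). TNFAIP3 (A20), which edits ubiquitin on receptor complexes, rose by 1.54 in Surv-GFP cells and had 0.05, not called, in SurvNESmut-GFP cells (difference -1.49, adjusted p = 8.6e-07). TRAF1 rose by 1.94 in Surv-GFP cells and fell by 1.43 in SurvNESmut-GFP cells, from 33.3 and 35.5 to 10.8 and 14.7 CPM. Without TMZ it was higher in SurvNESmut-GFP cells by 3.07 (adjusted p = 6.6e-12), as TNFAIP3 was by 1.35 and TNFRSF12A by 1.82. RBCK1 (HOIL-1) rose in both clones, by 0.63 and 0.53. TRAF4 was lower in SurvNESmut-GFP cells, at -0.71 and -0.82, and MAP3K5 (ASK1) higher by 0.73 and 0.91, without and with TMZ.

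Among genes around caspase-8, PEA15, a death effector domain protein that binds FADD and caspase-8, rose by 1.12 in Surv-GFP and by 0.22 in SurvNESmut-GFP cells, and the latter call was lost without untreated or treated SurvNESmut-GFP replicate a. CUL3, part of a ligase that modifies caspase-8, and XIAP, an inhibitor of executioner caspases, rose by 0.46 and 0.41 in Surv-GFP cells and had -0.04 and -0.15, not called, in SurvNESmut-GFP cells (differences -0.50 and -0.55, adjusted p = 2.4e-05 and 4.4e-05, edgeR). DAXX fell in both, by 0.40 and 0.23. BID, cleaved by caspase-8, was higher in SurvNESmut-GFP cells by 1.56 without and 2.06 with TMZ, and FAIM, an inhibitor of FAS-induced death, by 2.04 and 1.23. RIPK3, which takes part in death without caspase-8, had 0 counts in all libraries.

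**Figure D4:**
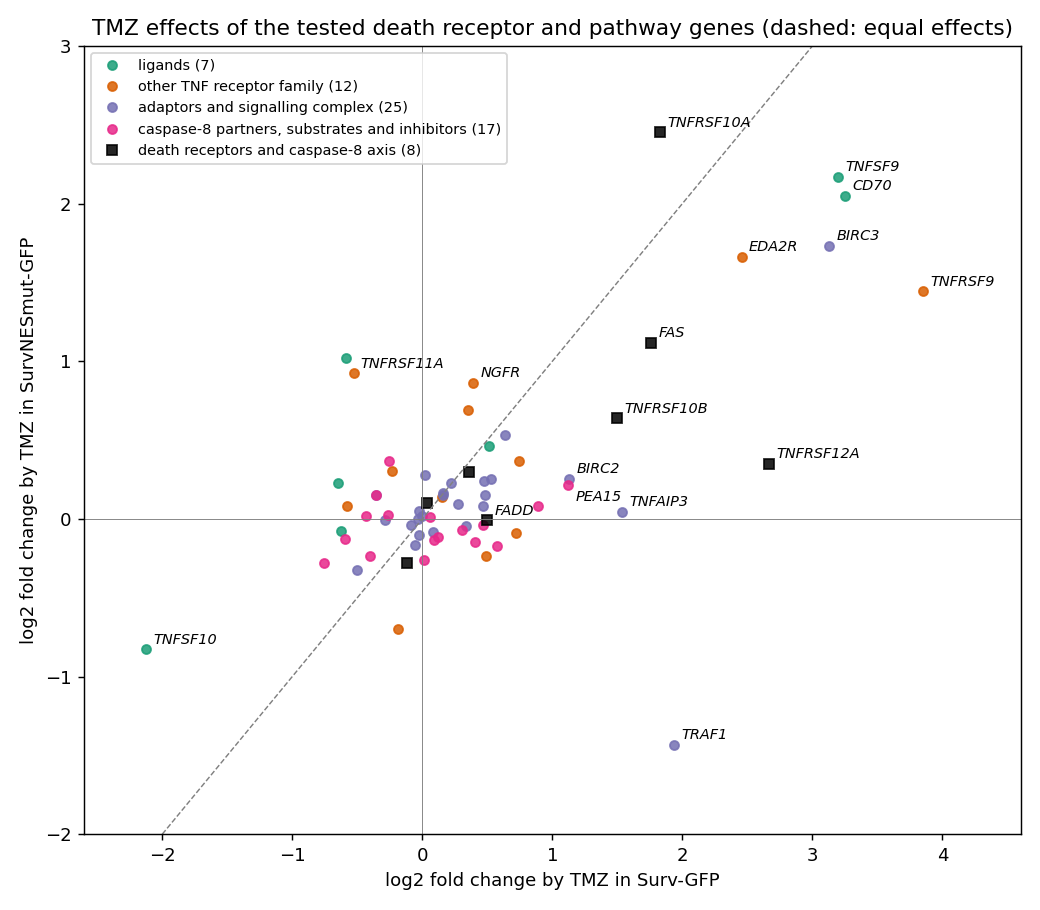
Log2 fold change with TMZ in Surv-GFP (x axis) against SurvNESmut-GFP cells (y axis) for the tested genes. Black squares are the 8 tested death receptor, caspase-8 axis and TNFRSF12A genes, and coloured circles are the pathway genes by role. CD40, at 0 or 1 counts in Surv-GFP cells, is left out. The dashed line marks equal effects; TNFRSF12A and TRAF1 lie far below it, at 2.67 and 0.35 and at 1.94 and -1.43.

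The genes whose pattern over the 8 libraries was closest to that of TNFRSF12A, by the root mean square difference of log2 CPM around each gene's mean, were CLCF1 (0.159), S100A2 (0.192), MYEOV (0.223), IRAK2 (0.24) and DUSP8 (0.244). For FAS they were CARNS1 (0.133), ZNF761 (0.141), ARSG (0.149), ZNF28 (0.151) and SLC38A1 (0.155). For TNFRSF10B they were AARS (0.0861), PRKAB2 (0.0868), POLR3C (0.0917), DCUN1D3 (0.0938) and CCDC174 (0.1). No gene was shared between these 3 short lists. Each pattern is of 8 libraries in 4 groups, so likeness here is mostly that of 4 group means.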

How the data were processed

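RNA-seq libraries of 2 LN229 clones, untreated or given TMZ, were grouped by their sample labels (4 groups of 2). The authors deposited a table of raw read counts, whole numbers, with a gene symbol per line. STAR 2.5.0b, Cufflinks 2.2.1 and edgeR are named in the submitters' processing notes. No source used here states the genome build, the annotation, the counting program or its strand setting. The authors' 5 comparison tables (fold changes, average CPM, F, p and FDR) were not used. The 2 rows that name no gene, reads on no feature (11.2 to 14.3% of all) and ambiguous reads (1.19 to 1.28%), were left out.

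The analysis used edgeR 4.0.16 and limma 3.58.1 under R 4.3.3. All 8 libraries entered a single model of 4 group means, after TMM normalization and filtering by group (filterByExpr), with the quasi-likelihood F test as in earlier edgeR versions, with Benjamini-Hochberg adjustment over 14201 genes and a threshold of 0.05. CPM uses TMM-scaled library sizes. SE is the coefficient divided by the square root of F. The TNFRSF10A, TNFRSF10C and TNFRSF10D ratios are of summed counts, with exact 95% intervals; intervals and limits from 0 counts cover counting error only. The members and lists were chosen with earlier results of these data known. Outside the members, the genes named were, per list and comparison, the 3 with the smallest p among those called whose groups did not overlap, plus CDKN1A, MDM2, GDF15, BIRC5 and the cell type markers; FASLG, TNF, RIPK3 and FAF1 were named after their values were seen. One gene that this rule selects is not reported here. Likeness used log2(CPM + 0.1).

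Alternatives were other scalings and filters, DESeq2 1.42.0, edgeR 4's method, a robust prior, a replicate block, only the groups compared, and each library left out; where this left 1 library in a group, it was assumed to vary like the others. The fits were tested on simulated data first. Replicates differed by more than sampling noise in every group, most in treated SurvNESmut-GFP cells (chi-square per degree of freedom 5.49, against 2.14 to 2.58 in the other groups), whose replicate a also had the highest share of reads on no feature. No 50-base window of a GENCODE 29 transcript was shared between the 10 genes.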

Additional observations from a re-analysis of the deposited data

Results flagged for a closer look

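Fitted differences between the clones' TMZ effects are SurvNESmut-GFP minus Surv-GFP on the log2 scale. Among the genes described here, TNFRSF10A with its few counts aside, the largest were those of FADD (-0.51), FAS (-0.64), TNFRSF10B (-0.86) and TNFRSF12A (-2.31). These genes were chosen with such values known, so this is a description and no test. Over all genes tested, edgeR's test of the difference called 20.2% lower and 16.6% higher. By role, 0 of 7 tested ligands, 3 of 13 receptors, 1 of 25 adaptors and 5 of 17 caspase-8 partners were called higher. In the same order, 2, 5, 8 and 7 were called lower. Of these only genes picked by the naming rule are listed next, so the lists are not complete. Among adaptors and ligases the effect differed for BIRC2 (-0.87), BIRC3 (-1.39), TNFAIP3 (-1.49) and TRAF1 (-3.37). Around caspase-8 it differed for BID (0.51), CUL3 (-0.50), FAIM (-0.81), PEA15 (-0.90) and XIAP (-0.55). Among ligands and receptors it differed for CD70 (-1.20), TNFSF9 (-1.03), EDA2R (-0.79), NGFR (0.48), RELT (-0.73), TNFRSF11A (1.45), TNFRSF19 (-0.51), TNFRSF21 (0.66) and TNFRSF9 (-2.40). The amount of survivin transcript also differed between the clones, at 1980 against 258 CPM after TMZ, and its part in these differences was not tested.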

How the results depend on the processing

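No called direction of the genes described here turned under any alternative tried. The same held for the pathway genes picked by the naming rule, each in the comparison that picked it. Other called genes were not checked for this. The number of pathway genes lower with TMZ in SurvNESmut-GFP cells was 7, and 4 with DESeq2; with each library left out it ranged from 4 to 7, with 4 without either untreated SurvNESmut-GFP library. The number of death receptor genes called between the untreated clones was 8, and ranged from 5 to 8 with each library left out. TNFRSF19 in SurvNESmut-GFP cells lost its call with a robust prior. The same-lettered libraries of different groups did not deviate together (r from -0.0981 to 0.0965 for the deviations across genes). This compares a single deviation per group, so it cannot show whether same-lettered libraries shared an experiment or batch. With a replicate block 6 pathway genes were lower with TMZ in SurvNESmut-GFP cells against 7. With 2 libraries a group, counts under about 20 per library, as for TNFRSF10A in SurvNESmut-GFP cells and both decoy receptors, set the limit of what could be seen.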

Other observations

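The other p53 targets taken as a check of exposure moved as CDKN1A did. MDM2, the p53 ubiquitin ligase, averaged 119 and 438 CPM in untreated and treated Surv-GFP cells and 199 and 377 CPM in SurvNESmut-GFP cells. GDF15, a stress-induced secreted factor, averaged 15.8 and 1460 CPM in Surv-GFP and 71.0 and 454 CPM in SurvNESmut-GFP cells. By group means GDF15 thus started higher and ended lower in SurvNESmut-GFP cells, as did CDKN1A, MDM2, FAS, FADD and TNFRSF12A. FAF1, a FAS-associated factor, had 0 or 1 counts in every library. The annotation and the counting settings are not stated, so these counts do not show that FAF1 was not expressed.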
